A study of Mus musculus with 186 samples.

Results

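Thalamus from wild-type mice was compared between 4 and 12 weeks of age in 11 bulk RNA-seq libraries, chosen by region, genotype and age from the 186 libraries of the series. Of these, 6 were collected at 4 weeks (samples 913, 914, 23, 142, 42 and 92) and 5 at 12 weeks (samples 1 to 5). The series profiled 6 brain regions of mice with 3 Akap11 genotypes at both ages: WT, Akap11 +/- (heterozygous) and Akap11 -/- (homozygous mutant). Akap11 encodes a scaffold that anchors protein kinase A. The 11 libraries came from WT mice, which carry no mutant Akap11 allele and received no treatment that the labels name. The heterozygous thalamus (5 libraries at each age) and the homozygous mutant thalamus (5 at each age) are used below only for the same age comparison in other libraries. Tissue was cut from frozen brains in a cryostat, so each library holds RNA of all thalamic cell types and of any neighbouring tissue taken along. The ages are separate collections, so age and collection cannot be told apart in any comparison here. The labels number the samples without naming animals, so p-values measure the spread between these samples.

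The thalamus relays sensory and motor signals to the cortex through glutamatergic neurons, which are inhibited by the GABAergic neurons of the thalamic reticular nucleus. In mice, the weeks around weaning bring the end of the main wave of oligodendrocyte differentiation: precursor cells leave the cell cycle, pass through a premyelinating stage, and make the myelin lipids and proteins that wrap axons. Myelin needs much cholesterol, which brain cells make themselves. Over the same period neurons lower their growth-cone genes, and DNA methylation of neuronal genomes is built up by Dnmt3a.

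Library totals were 29.5 to 52.8 (in units of 1000000 estimated counts) at 4 weeks and 37 to 59.7 at 12 weeks. Levels are given as CPM, counts per 1000000 after TMM scaling of the library sizes (marker scores and Akap11 over all 31 thalamic libraries together, other levels within their own comparison), and changes as log2 of 12 over 4 weeks. The label "thalamus" was checked with 14 relay neuron markers, among them Slc17a6, Tcf7l2 and Prkcd. Their mean log2(CPM + 1) was 7.91 to 8.3 in 9 libraries, 7.12 in WT 913 and 7.26 in WT 914, both from 4 weeks. Both libraries also held the most mRNA of cortical and striatal marker genes. The cortical score (10 genes, including Tbr1 and Neurod6) was 4.49 in WT 913 and 2.37 in WT 914, against 0.99 to 1.22 elsewhere. The hypothalamic score (10 genes, including Avp and Hcrt) was 4.81 in WT 913 and at most 0.87 elsewhere. The striatal score was 2.72 and 3.19 in WT 913 and WT 914, against 2.15 to 2.31. Markers of the reticular nucleus varied at both ages, from 2.4 to 6.47 at 12 weeks and from 5.02 to 6.23 at 4 weeks except in WT 142 (1.94). Akap11 was 211 to 273 CPM at 4 weeks and 173 to 214 CPM at 12 weeks in WT, 100 to 142 CPM in heterozygous thalamus and 11.9 to 17.9 CPM in homozygous mutant thalamus.

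**Figure D1:**
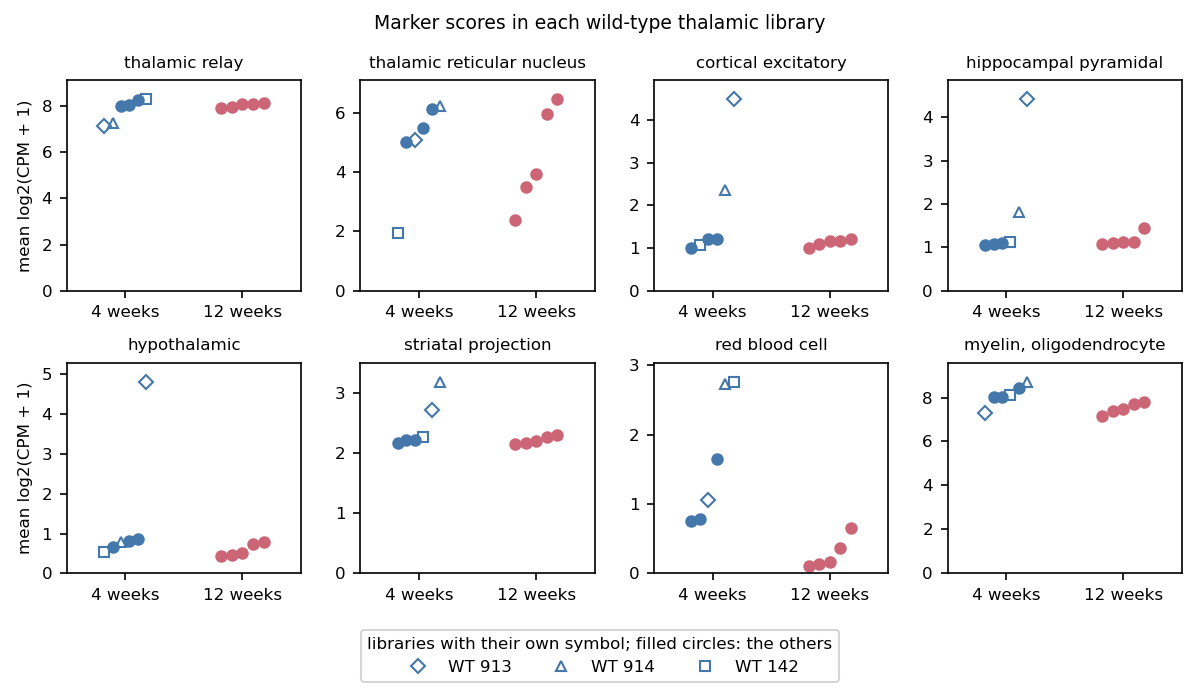
Mean log2(CPM + 1) of 8 marker lists (vertical axis) in each WT thalamic library, by age; open symbols mark WT 913, WT 914 and WT 142. WT 913 stands apart in cortical, hippocampal and hypothalamic markers, WT 142 has a reticular nucleus score of 1.94, and the red blood cell score is 0.76 to 2.76 at 4 weeks and 0.10 to 0.66 at 12 weeks.

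Between 4 and 12 weeks, 2227 of 15545 genes tested changed (14.3%; edgeR quasi-likelihood test, adjusted p under 0.05). Of these, 1163 were higher at 12 weeks (7.48% of genes tested) and 1064 were lower (6.84%). The change exceeded 1 on the log2 scale in 280 genes (1.8%), of which 128 were higher and 152 lower. In 1670 genes (10.7%) every 12-week library lay above, or every one below, all 4-week libraries. The median log2 change over all genes tested was -0.01. Without WT 913 the test called 2655 genes, and 1002 of the 1163 rises (86.2%) and 1035 of the 1064 falls (97.3%) were among them with the same sign. Without WT 913 and WT 914 it called 2928 genes (8.37% of genes tested higher and 10.5% lower), among them 921 of the rises (79.2%) and 969 of the falls (91.1%). Leaving out sample 2 of 12 weeks lowered the count to 1361.

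**Figure D2:**
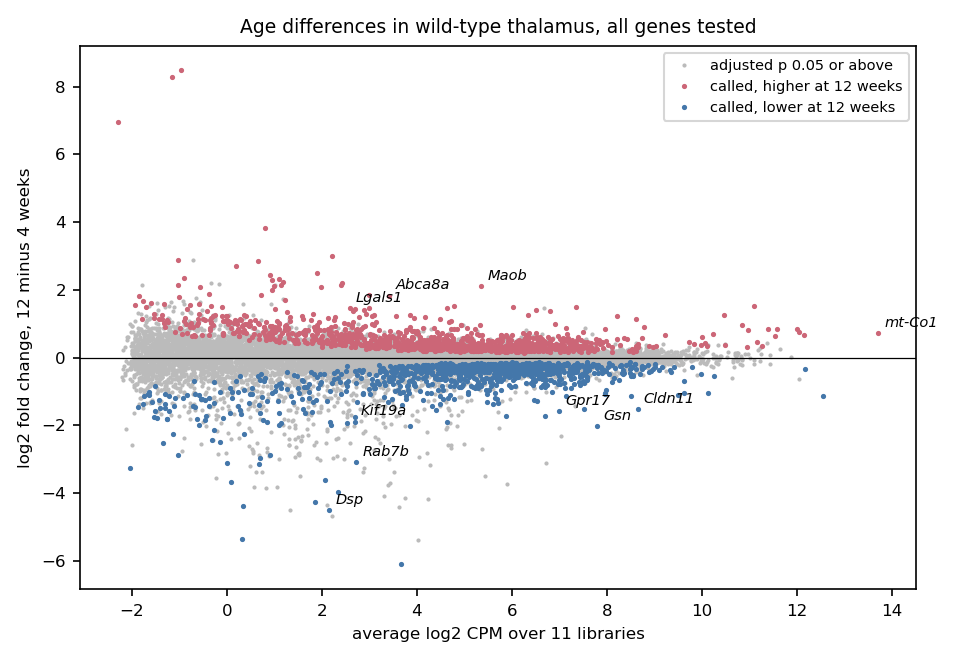
Each point is 1 of the 15545 genes tested in WT thalamus: its average log2 CPM over the 11 libraries (horizontal axis) and its log2 change from 4 to 12 weeks (vertical axis). Red points (1163) were called higher and blue points (1064) lower at 12 weeks at an adjusted p under 0.05; labelled genes range from Maob (2.11) to Dsp (-4.5), whose change was -1.58 without WT 913.

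The largest rises and falls are those of 12 genes each, taken by size among called genes above a level of 1 in average log2 CPM whose ages did not overlap and which were also called without WT 913. Among the rises stood Maob (chrX:16709282-16817366, mm10), which encodes monoamine oxidase B, a mitochondrial enzyme that breaks down amines and is found in astrocytes. Maob was 11.4 to 25.2 CPM at 4 weeks (median 15.9) and 55.6, 82.5, 64, 67.3 and 83.5 CPM in samples 1 to 5 at 12 weeks. The mean went from 16.4 ± 4.75 (SD, n = 6) to 70.6 ± 12.1 (SD, n = 5), a log2 change of 2.11 ± 0.19 (SE, edgeR adjusted p = 0.000229). Every 12-week library was above the highest 4-week library. Maob also rose in heterozygous thalamus by 1.46 (adjusted p = 0.0129) and in homozygous mutant thalamus by 1.37 (adjusted p = 0.000523).

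Abca8a, a lipid transporter of the ABC family, rose from 3.12 to 5.99 CPM at 4 weeks (median 5.19) to 16.8, 13.3, 17.9, 22.2 and 17.1 CPM at 12 weeks. The log2 change was 1.83 ± 0.17 (SE, edgeR adjusted p = 0.000267). Xdh, which encodes the purine-degrading enzyme xanthine dehydrogenase, was 1.23 to 3.06 CPM at 4 weeks and 6.67, 14.4, 8.14, 9.14 and 7.75 CPM at 12 weeks (2.19 ± 0.25). Both genes also rose in heterozygous and homozygous mutant thalamus, by 1.94 and 1.67 for Abca8a and by 1.79 and 1.34 for Xdh. Gm42756, a predicted antisense RNA gene, rose by 2.5 in WT, 2.48 in heterozygous and 2.55 in homozygous mutant thalamus, and its reads may include those of an overlapping gene, and no source used here gives the strand setting of the counting. A trio of peptide receptors was in the group: Npsr1 for neuropeptide S (2.23 ± 0.64), Rxfp1 for relaxin (2.15 ± 0.49) and Nmbr for neuromedin B (2.14 ± 0.56). All were low, at most 1.73, 5.88 and 1.59 CPM in any 4-week library and at most 5.06, 11.8 and 7 CPM at 12 weeks. Npsr1 lost its call in 7 of the 11 fits that left out 1 library (adjusted p up to 0.083) and Nmbr in 5 (up to 0.064). The interferon-induced GTPase gene Gbp4 (1.7 ± 0.19) and the calcium uniporter subunit gene Ccdc109b (2.33 ± 0.44) completed the low-level rises.

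The remaining rises were the fibril-associated collagen gene Col12a1 (1.84 ± 0.31), the synaptic organizer gene Cbln2 (1.52 ± 0.31) and Gm42418 (1.51 ± 0.27), a gene model that overlaps ribosomal RNA sequence. Cbln2 was 7.86 to 28.5 CPM at 4 weeks (median 12.3) and 35.6, 42.2, 51.5, 37 and 47.4 CPM at 12 weeks. Its log2 change was 0.00 in heterozygous and -0.05 in homozygous mutant thalamus (edgeR adjusted p = 0.996 and 0.936). Col12a1 was 0.67 and 0.74 there (adjusted p = 0.358 and 0.232). The difference between genotypes in these age changes was not tested.

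Among the falls, Rab7b (chr1:131688695-131715439), which encodes a small GTPase of late endosomes, was 6.26 to 16.4 CPM at 4 weeks (median 10.9) and 1.82, 0.619, 1.36, 1.43 and 1.22 CPM at 12 weeks. Its log2 change was -3.09 ± 0.3 (SE, edgeR adjusted p = 0.000335), an 8.51-fold lower mean level, with -3.26 in heterozygous and -2.71 in homozygous mutant thalamus. Gsn, which encodes the actin-severing protein gelsolin and is expressed in oligodendrocytes, was 178 to 538 CPM at 4 weeks (median 318) and 99.6, 78, 72.1, 99.6 and 65.3 CPM at 12 weeks (-2.03 ± 0.24). The lowest 4-week library for both genes was WT 913 and the highest was WT 914. Both genes were below every 4-week library in all 12-week libraries. Kif19a, a kinesin gene, fell by 1.89 on the log2 scale, Rassf10 by 1.99, Slc45a3, a sugar transporter gene, by 1.75, and Man1a, which encodes a mannosidase that trims N-glycans, by 2.01. All of these also fell in heterozygous and homozygous mutant thalamus, by between 1.03 (Slc45a3) and 2.53 (Rassf10).

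Other falls were in genes of matrix and blood. Col3a1 fell by 1.9, Col6a2 by 1.99 and Matn2 by 1.94. Fibroblast and meningeal markers summed to 33.5 to 97.2 CPM at 4 weeks and 35.8 to 49 CPM at 12 weeks (without TMM scaling). Of these 10 markers 2 were called lower, Col6a1 and Col3a1 itself (20%, against 6.84% of all genes tested). Without WT 913, which held the highest sum, 1 of the 10 was lower (1476 of 15429 genes in that fit). The list's median log2 change was -0.27 over all libraries and 0.03 without WT 913. Col6a1 lost its call in 9 of the 11 fits that left out 1 library. The part of these markers in the falls was not tested. Matn2 was 25.7 CPM in WT 913 and 4.16 to 7.68 CPM in the other 4-week libraries, and its log2 change without WT 913 was -1.23. Dsp, the desmoplakin gene, rested on WT 913 as well: it was 41.8 CPM there and 0.608 to 1.62 CPM in the other 4-week libraries, and its log2 change of -4.5 became -1.58 without it. The hypothalamic peptide gene Avp, called over all libraries (-6.11, adjusted p = 0.0478), was -2.36 without WT 913 (adjusted p = 0.0896) and lost its call in 9 of the 11 fits that left out 1 library. With 1 library left out, Dsp lost its call in 6 of 11 fits, Matn2 in 5 and Hbb-bs, described next, in 4. The haemoglobin genes Hba-a2 (-4.28 ± 0.9) and Hbb-bs (-3.62 ± 0.94) were at 1.56 to 14 and 1.68 to 16.2 CPM at 4 weeks and at most 0.873 and 1.65 CPM at 12 weeks. Of 5 red blood cell markers, 4 were tested and all 4 were lower at 12 weeks (against 6.84% of all genes tested). No red blood cell marker was called in heterozygous thalamus (4 tested) or homozygous mutant thalamus (2 tested) by edgeR or DESeq2, none had an unadjusted p under 0.05, and Hba-a2 had log2 changes of -0.98 and 1.27 (edgeR adjusted p = 0.561 and 0.274). These genes have near-identical copies, between which the counting may have divided reads.

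Genes of the oligodendrocyte lineage were lower at 12 weeks. Of 12 markers of precursor and premyelinating cells, 10 fell and none rose (83.3% lower, against 6.84% of all genes tested), with a median log2 change of -0.52. Gpr17, a receptor carried by cells at the step before myelination, was 131 to 241 CPM at 4 weeks (median 178) and 55.9, 59.6, 58.5, 68.3 and 62.7 CPM at 12 weeks. That is a fall by 1.58 on the log2 scale (SE 0.14, edgeR adjusted p = 0.000222), and the ages did not overlap. Bmp4, which encodes a secreted growth factor, was 3.48 to 5.32 CPM at 4 weeks and 1.39, 1.18, 1.57, 1.66 and 1.64 CPM at 12 weeks (-1.51 ± 0.15). Enpp6, an enzyme of choline metabolism in newly forming oligodendrocytes, was 14.5 to 40.6 CPM at 4 weeks and 16.6, 12, 10.7, 12.4 and 8.3 CPM at 12 weeks (-1.36 ± 0.24). Sample 1 at 12 weeks overlapped the lowest 4-week library, WT 913. Pdgfra, the growth factor receptor of the precursors themselves, fell less, from 68.8 ± 5.82 CPM (SD, n = 6) to 52.4 ± 3.03 CPM (SD, n = 5), a log2 change of -0.39 ± 0.07 (SE, edgeR adjusted p = 0.00361). Tnr, a matrix glycoprotein of the lineage, fell by 0.67 on the log2 scale.

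Of 25 markers of myelin and mature oligodendrocytes, 11 fell and none rose (6.84% of all genes tested fell), with a median log2 change of -0.61. Cldn11 (chr3:31149920-31164324), the tight junction protein of myelin, was 309 to 879 CPM at 4 weeks (median 548) and 237, 198, 179, 242 and 142 CPM at 12 weeks (-1.52 ± 0.23, edgeR adjusted p = 0.00224). Ugt8a makes galactosylceramide, a main myelin lipid. It was 127 to 356 CPM at 4 weeks (median 256) and 119, 84.2, 83.6, 102 and 71.4 CPM at 12 weeks (-1.51 ± 0.23). Mag, an adhesion molecule of the innermost myelin layer, fell from 961 ± 311 CPM (SD, n = 6) to 449 ± 63.9 CPM (SD, n = 5), a log2 change of -1.1 ± 0.22 (SE, edgeR adjusted p = 0.00788), with 2 of its 12-week libraries above the lowest 4-week library. Mbp, the myelin basic protein gene, had a log2 change of -0.62 ± 0.24 that did not pass the test (adjusted p = 0.102). In all 4 genes the lowest 4-week value was in WT 913 and the highest in WT 914, and without both libraries 15 of the 25 markers were lower (10.5% of all genes in that fit). Fewer oligodendrocytes and less of these mRNAs in each cell cannot be told apart in bulk tissue.

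**Figure D3:**
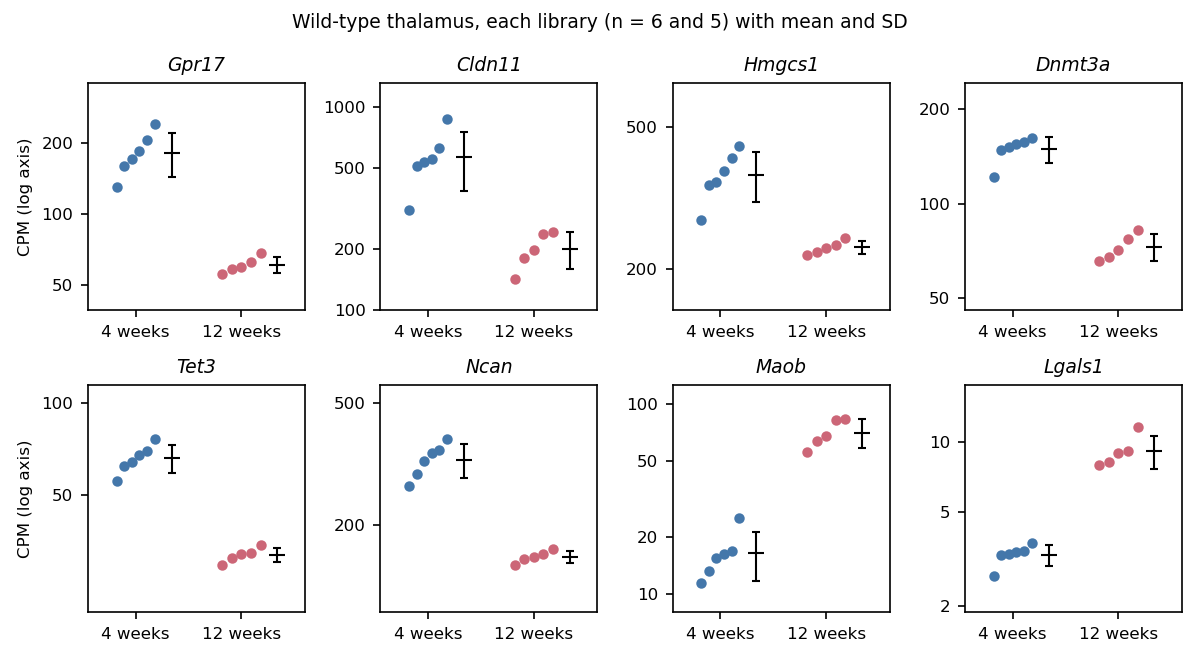
CPM on a log axis of 8 genes in each WT thalamic library at 4 weeks (6 points) and 12 weeks (5 points), with mean and SD beside the points. Gpr17, Cldn11, Hmgcs1, Dnmt3a, Tet3 and Ncan are lower and Maob and Lgals1 higher at 12 weeks. The 8 genes were picked for display with their values known. The ages do not overlap in any of them, against 10.7% of all genes tested.

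Sterol synthesis genes fell with them: 11 of 22 were lower at 12 weeks (50%, against 6.84% of all genes tested) and none was higher. Their median log2 change was -0.33. Hmgcs1, which makes the HMG-CoA from which sterols are built, was 275 to 444 CPM at 4 weeks (median 365) and 219, 245, 229, 224 and 234 CPM at 12 weeks, a log2 change of -0.67 ± 0.1 (SE, edgeR adjusted p = 0.00239). Every 12-week library lay below the lowest 4-week library, which was WT 913. Dhcr7, an enzyme of the last steps, fell by 0.63. Ebp, the sterol isomerase, fell from 19.4 ± 3.01 CPM (SD, n = 6) to 14.1 ± 1.27 CPM (SD, n = 5), a log2 change of -0.46 ± 0.11 (SE, edgeR adjusted p = 0.0177). In heterozygous and homozygous mutant thalamus 11 and 15 of the 22 genes were lower (6.1% and 16.2% of all genes tested there). Without samples 11 and 93 of 4 weeks, 7 were lower in heterozygous thalamus (3.82% of all genes in that fit).

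Transcription of this pathway is known to depend on SREBP2, which binds sterol regulatory elements beside CCAAT boxes. Promoter windows (250 bases before to 50 after the start) from RefSeq (GRCm38.p6) were matched for 16 of the 22 sterol genes. A gene with several windows counted if any of them held a match. The motif CCAAT, on either strand, was found for all 16 genes (100%), against 41.1% of 27025 genes with a window. Of the 11528 such genes tested in WT thalamus, 42.5% had it. The sterol regulatory element TCACNCCAC, on either strand, was found for Hmgcs1 alone of the 16 genes (6.25%), against 1.44% of all genes. Stretches from 210 to 61 bases before the start are shown for 2 genes that fell, Hmgcs1 (chr13:119690141-119690290, plus strand) and Ebp (chrX:8193573-8193722, minus strand), because both windows hold a match there. Capitals mark TCACCCCAC, the sterol regulatory element, and ATTGG, which is CCAAT on the other strand.
Hmgcs1: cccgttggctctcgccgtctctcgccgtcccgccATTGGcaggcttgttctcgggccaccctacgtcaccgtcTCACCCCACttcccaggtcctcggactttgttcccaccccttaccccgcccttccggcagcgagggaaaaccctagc
Ebp: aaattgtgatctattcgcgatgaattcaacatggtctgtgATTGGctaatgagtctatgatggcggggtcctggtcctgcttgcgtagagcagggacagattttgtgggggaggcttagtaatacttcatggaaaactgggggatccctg
A match is a run of letters and was not measured as a bound site, and a window without one says only that the letters are not in these 300 bases.

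Of the enzymes that write or remove DNA methylation, Dnmt3a, Tet3 and Tet1 fell. Dnmt3a (chr12:3806007-3914443), the enzyme that adds new methyl groups to DNA, was 121 to 161 CPM at 4 weeks (median 153) and 65.5, 71.4, 77.1, 67.8 and 82.6 CPM at 12 weeks. The mean was 2.04-fold lower, a log2 change of -1.03 ± 0.08 (SE, edgeR adjusted p = 0.000193). Tet3, which oxidizes methylated cytosine, was 55.5 to 76.5 CPM at 4 weeks and 31, 29.2, 32.2, 31.8 and 34.1 CPM at 12 weeks (-1.06 ± 0.08). Its relative Tet1 was 18.6 to 20.6 CPM and 10.9, 9.87, 9.9, 12.5 and 11.4 CPM (-0.84 ± 0.07). The ages did not overlap in these 3 genes, which were named for their small p (10.7% of all genes tested did not overlap). All 3 also fell in heterozygous thalamus (by 1.06, 0.92 and 0.77) and homozygous mutant thalamus (by 1.16, 0.87 and 0.81). Of the 13 tested genes of the chromatin and DNA methylation list, 4 fell (30.8%, against 6.84% of all genes tested), with a median log2 change of -0.24.

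Genes of growing neurons and of cell division were in part lower. Of 19 tested genes of neurite growth and immature neurons, 5 fell (26.3%, against 6.84% of all genes tested) and none rose (median log2 change -0.29). Marcksl1, an actin-binding substrate of protein kinase C, was 63.7 to 127 CPM at 4 weeks (median 74.1) and 27.6, 20.2, 18.8, 26.2 and 36.6 CPM at 12 weeks (-1.74 ± 0.23, edgeR adjusted p = 0.00111). Its relative Marcks fell by 0.84, and the transcription factor genes Sox11 and Sox4 by 0.68 and 0.59. With WT 913 and WT 914 left out, 6 were lower and 1 was higher (31.6% and 5.26%, against 10.5% and 8.37% of all genes in that fit). Of 16 tested proliferation genes, 5 fell (31.2%, against 6.84% of all genes tested). Mki67, which marks dividing cells, was 1.09 to 1.83 CPM at 4 weeks and 0.695, 0.732, 0.495, 0.252 and 0.186 CPM at 12 weeks (-1.63 ± 0.33). Top2a, which untangles DNA in division, was 0.838 to 2.25 CPM and 0.504, 0.525, 0.689, 0.571 and 0.637 CPM (-1.44 ± 0.25). Both were low at both ages, and the ages did not overlap, as in 10.7% of all genes tested.

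Genes of the extracellular matrix moved in both directions: 4 of 15 rose and 5 fell (7.48% and 6.84% of all genes tested). Without WT 913 and WT 914, 3 rose and 3 fell (8.37% and 10.5% of all genes in that fit). In heterozygous thalamus 1 rose and 3 fell (4.56% and 6.1% of all genes tested there). Ncan, which encodes neurocan, a chondroitin sulfate proteoglycan of young brain matrix, was 268 to 381 CPM at 4 weeks (median 333) and 149, 158, 161, 156 and 168 CPM at 12 weeks. Its log2 change was -1.05 ± 0.09 (SE, edgeR adjusted p = 0.000193), and every 12-week library lay below every 4-week library. The protease genes Adamts4 and Adamts5, whose products cleave such proteoglycans, fell by 1.25 and 0.91, and the hyaluronan synthase gene Has2 by 1.5. Lgals1, the gene of galectin-1, was 2.67 to 3.69 CPM at 4 weeks and 8.92, 11.6, 9.08, 8.16 and 7.93 CPM at 12 weeks (1.47 ± 0.12, edgeR adjusted p = 0.000193). Sparc and Sparcl1, secreted by glia and endothelial cells, rose by 0.41 and 0.46, and Ptprz1, a receptor of proteoglycan type, by 0.26. In heterozygous thalamus Sparc and Sparcl1 had log2 changes of -0.08 and 0.03 (adjusted p = 0.811 and 0.927).

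Few receptor and channel genes of neurons were called over all 11 libraries, a share not far from the 14.3% of all genes tested. Of 7 NMDA receptor subunit genes, the obligatory subunit gene Grin1 fell, from 527 to 685 CPM at 4 weeks (median 616) to 454, 446, 491, 467 and 503 CPM at 12 weeks (-0.37 ± 0.07, edgeR adjusted p = 0.00791). Grin2b, the subunit that dominates in young neurons, was 302 to 686 CPM at 4 weeks and 355, 409, 320, 371 and 301 CPM at 12 weeks, which did not pass the test (-0.52 ± 0.18, adjusted p = 0.0832). It fell by 0.38 in homozygous mutant thalamus (adjusted p = 0.00353). Grin2a had a log2 change of -0.31 (adjusted p = 0.36), Grin2c of -0.1 (0.675), Grin2d of -0.06 (0.911), Grin3a of 0.21 (0.45) and Grin3b of -0.68 (0.102). Over all 11 libraries 1 of the 7 was lower (14.3%, against 6.84% of all genes tested). In the absence of WT 913 and WT 914, 3 of the 7 were lower (10.5% of all genes in that fit).

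Of 16 genes of AMPA receptors and their auxiliary proteins, 1 rose and 1 fell, shares near those of all genes tested (7.48% and 6.84%). Cacng2, the auxiliary protein stargazin that brings AMPA receptors to synapses, was 98.2 to 146 CPM at 4 weeks (median 131) and 157, 166, 180, 184 and 172 CPM at 12 weeks (0.42 ± 0.1, edgeR adjusted p = 0.0157). Gsg1l, an auxiliary protein that slows recovery of the receptors, was 39.6 to 75.2 CPM and 36.1, 31.9, 34, 39 and 35.3 CPM (-0.74 ± 0.14, adjusted p = 0.00679). Both changes were also called in heterozygous thalamus (0.38 and -0.7) and in homozygous mutant thalamus (0.4 and -0.98).

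Of 14 genes of GABA-A receptors and chloride transporters, 2 fell and none rose (6.84% and 7.48% of all genes tested). Gabrg3, a gamma subunit gene, was 20.3 to 36.5 CPM at 4 weeks and 14.5, 13.4, 15.6, 18.9 and 19 CPM at 12 weeks (-0.84 ± 0.16, edgeR adjusted p = 0.00688). Slc12a2, the chloride importer NKCC1 that oligodendrocyte-lineage cells also express, fell by 0.79 (adjusted p = 0.018). The chloride exporter gene Slc12a5 had a log2 change of -0.19 (adjusted p = 0.0973). Subunits of extrasynaptic receptors did not pass the test: Gabra4 had a log2 change of 0.16 and Gabrd of -0.08 (adjusted p = 0.7 and 0.834). Gabra3, a subunit of the reticular nucleus, was 24.9 to 102 CPM at 4 weeks and 74.1 to 110 CPM at 12 weeks, with the ages overlapping. Gabra5, a hippocampal and cortical subunit, was 106 CPM in WT 913 against at most 11.1 CPM in any 12-week library. Its log2 change of -1.7 (adjusted p = 0.305) was 0.44 without that library.

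Of 26 tested channel genes of relay firing, 3 fell (11.5%, against 6.84% of all genes tested): the pacemaker channel gene Hcn2 (-0.48 ± 0.13), the leak potassium channel gene Kcnk9 (-0.79) and the T-type calcium channel gene Cacna1h (-1.89 ± 0.53). Cacna1h was 11.9 to 107 CPM at 4 weeks, and its log2 change without WT 913 was -1.23. Hcn2 was 312 to 575 CPM at 4 weeks and 361, 336, 347, 358 and 317 CPM at 12 weeks, and the ages overlapped. The calls were lost in 7 (Hcn2), 4 (Kcnk9) and 6 (Cacna1h) of the 11 fits that left out 1 library. Leaving out WT 913 and WT 914 made the count of falls 8 of the 26 (30.8%, against 10.5% of all genes). None of 20 genes of synaptic vesicles and release passed the edgeR test over all 11 libraries (median log2 change -0.03). Of the 20, 4 had an unadjusted p under 0.05 and 3 passed with DESeq2. Without both libraries 3 were lower (15%, against 10.5% of all genes in that fit). Of the 14 relay neuron markers, the transcription factor gene Gbx2 rose, from 9.63 to 25.2 CPM at 4 weeks to 20.9, 46.2, 40.7, 30.9 and 46.9 CPM at 12 weeks (1.07 ± 0.27, edgeR adjusted p = 0.0234). Its ages overlapped and its call was lost in 3 of the 11 fits that left out 1 library. A share of 1 in 14 is 7.14%, against 7.48% of all genes tested. In the 9 libraries other than WT 913 and WT 914, none of the 14 was higher and 3 were lower (21.4%, against 10.5% of all genes in that fit). No reticular nucleus marker of 9 passed the edgeR test, had an unadjusted p under 0.05 or passed with DESeq2. Of 10 neurofilament and axon cytoskeleton genes 2 fell (20%, against 6.84% of all genes tested), Sptbn4 by 0.29 and Ank3 by 0.34. They encode spectrin and ankyrin of the axon initial segment, and the call of Ank3 was lost in 8 of the 11 fits that left out 1 library.

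Microglial and complement genes were higher at 12 weeks: 8 of 17 rose and 1 fell (47.1% higher, against 7.48% of all genes tested), with a median log2 change of 0.27. Ctss, the lysosomal protease cathepsin S, was 30.7 to 37.6 CPM at 4 weeks and 51.2, 49.9, 46.2, 53.5 and 46.3 CPM at 12 weeks (0.53 ± 0.07, edgeR adjusted p = 0.00107). C1qb, a chain of the complement initiator C1q, was 26 to 29.8 CPM and 41.4, 43.3, 34.1, 42.7 and 37.2 CPM (0.51 ± 0.07). Tyrobp, an adaptor of microglial receptors, was 5.22 to 7.24 CPM and 11, 10, 9.67, 9.42 and 10.6 CPM (0.69 ± 0.1). The ages did not overlap in these 3 genes, which were named for their small p (10.7% of all genes tested did not overlap). Csf1r, the receptor that microglia need to survive, fell by 0.21. Of 19 genes of antigen presentation and interferon response, B2m (0.67 ± 0.11) and Xaf1 (1.19 ± 0.17) rose (10.5%, against 7.48% of all genes tested). Without WT 913 and WT 914, 7 of these 19 and 7 of the 17 microglial and complement genes were higher (8.37% of all genes).

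Of 16 astrocyte markers, 5 rose and 1 fell (31.2% and 6.25%, against 7.48% and 6.84% of all genes tested). Their median log2 change was 0.15. Gjb6, the astrocyte connexin 30, was 52.9 to 61.8 CPM at 4 weeks (median 58.9) and 88.9, 128, 91, 92.5 and 83.3 CPM at 12 weeks (0.73 ± 0.1, edgeR adjusted p = 0.00147). Aldh1l1, a folate enzyme that marks astrocytes, was 50.6 to 66.2 CPM and 84.8, 96.1, 77.9, 85.4 and 74.4 CPM (0.5 ± 0.08). Acsbg1, a fatty acid activating enzyme, was 164 to 215 CPM and 301, 332, 244, 256 and 237 CPM (0.53 ± 0.11). The ages did not overlap in these 3 genes, which were named for their small p (10.7% of all genes tested did not overlap). Aqp4, the water channel of astrocyte endfeet, fell by 0.58. In heterozygous thalamus no astrocyte marker rose by edgeR, DESeq2 or an unadjusted p under 0.05. By edgeR 1 fell there (6.25%, against 6.1% of all genes tested). In homozygous mutant thalamus 8 rose (50%, against 13.5% of all genes tested there). Of 14 endothelial markers 3 rose (21.4%, against 7.48% of all genes tested). Among them the efflux transporter gene Abcb1a was 15.4 to 29.5 CPM at 4 weeks and 35.9, 45.1, 38.4, 37.3 and 32.4 CPM at 12 weeks (0.84 ± 0.14). Without WT 913 and WT 914, 7 rose (8.37% of all genes in that fit). In heterozygous and homozygous mutant thalamus edgeR called 0 higher and 1 lower in each (medians -0.03 and 0.14). Of all genes tested there, 4.56% and 13.5% were higher and 6.1% and 16.2% lower. DESeq2 called 0 of these markers higher in each genotype, and 0 and 3 were higher at an unadjusted p under 0.05. None of 8 mural cell markers passed the edgeR test (2 had an unadjusted p under 0.05, and 1 passed with DESeq2).

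Genes of ribosomes and respiration were higher by small amounts. Of 78 cytosolic ribosomal protein genes, 60 rose (76.9%, against 7.48% of all genes tested) and none fell, with a median log2 change of 0.34. Rpl31 was 85.4 to 109 CPM at 4 weeks (median 101) and 150, 166, 148, 168 and 152 CPM at 12 weeks (0.65 ± 0.07, edgeR adjusted p = 0.000432). Of 81 tested nuclear genes of oxidative phosphorylation 34 rose (42%, median 0.22), and of 13 mitochondrially encoded genes 12 rose (92.3%, median 0.81). mt-Co1, a subunit of cytochrome oxidase, was 9200 to 11700 CPM at 4 weeks and 19600, 19100, 16000, 15700 and 15500 CPM at 12 weeks (0.73 ± 0.09, adjusted p = 0.00107). In heterozygous thalamus edgeR called none of the 78 ribosomal genes higher (median 0.09; 6 at an unadjusted p under 0.05, 1 by DESeq2) and none of the 13 mitochondrial genes (median 0.29; 1 unadjusted, 0 by DESeq2). Of the 81 nuclear oxidative phosphorylation genes, 2 were called higher in that genotype (2.47%, against 4.56% of all genes tested there), with a median of 0. Without samples 11 and 93 of that genotype at 4 weeks, 15 ribosomal, 5 mitochondrial and 4 nuclear oxidative phosphorylation genes rose (1.95% of all genes). In homozygous mutant thalamus 69 ribosomal, 9 mitochondrial and 43 nuclear oxidative phosphorylation genes rose (13.5% of all genes tested there). Of the same lists, 0, 1 and 2 genes fell (16.2% of all genes tested there).

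Other properties of the libraries differed by age along with these genes, and their part in the result was not tested. Mitochondrial genes held 2.84 to 3.29% of counts at 4 weeks and 4.49 to 6.03% at 12 weeks. Gm42418 and Gm26917, gene models that overlap ribosomal RNA sequence, were at 618 to 2310 and 8.39 to 21 CPM at 4 weeks and at 3120 to 3660 and 27.9 to 43.7 CPM at 12 weeks. Gene length moved with the change as well: of the 3765 genes with the shortest transcripts 15.3% were called higher and 2.55% lower (median log2 change 0.12), and of the 3763 with the longest 2.82% and 12.2% (median -0.1). The gene model Gm10801 was listed at 0 in all 96 libraries of 4 weeks in the series and was above 0 in all 90 of 12 weeks, at 3.14 to 34.4 counts.

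**Figure D4:**
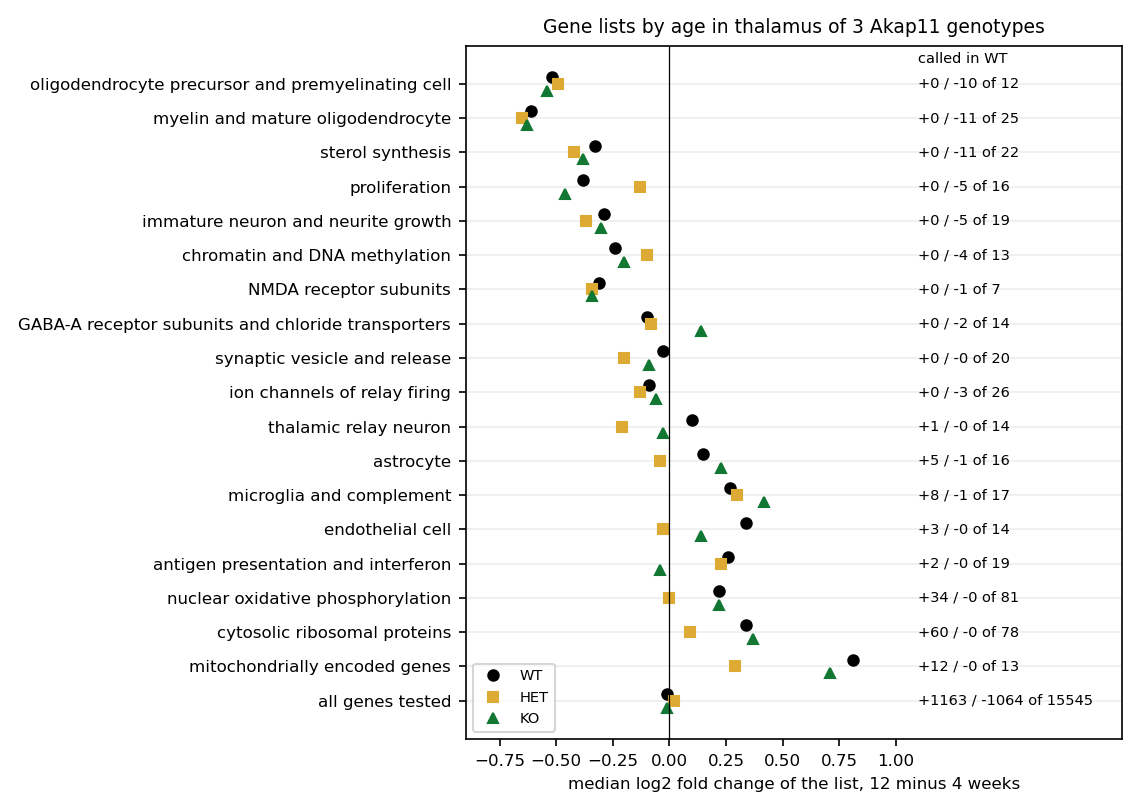
Median log2 change from 4 to 12 weeks (horizontal axis) of 18 gene lists and of all genes tested in WT, heterozygous (HET) and homozygous mutant (KO) thalamus; figures at the right give how many members were called higher and lower in WT. The oligodendrocyte and sterol lists lie below 0 in all 3 genotypes (myelin list -0.61, -0.65 and -0.63), while the medians of the ribosomal list are 0.34, 0.09 and 0.37.

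The age comparison was repeated in thalamus of the other genotypes, in libraries that the WT comparison did not use. It called 1637 of 15360 genes in heterozygous thalamus (10.7%; 700 higher, 4.56%, and 937 lower, 6.1%) and 4494 of 15159 in homozygous mutant thalamus (29.6%; 2042 higher, 13.5%, and 2452 lower, 16.2%). Of the 1163 genes that rose in WT, 280 (24.1%) were called higher in all 3 genotypes, and of the 1064 that fell, 550 (51.7%) were called lower in all 3. No gene called in WT was called in the opposite direction by edgeR in either of the other genotypes (1 in each at an unadjusted p under 0.05, and 0 and 1 by DESeq2). The sign in WT recurred for 96.9% of 2210 WT-called genes in heterozygous thalamus, against 74.3% of all genes tested in both, and for 98.9% of 2202 in homozygous mutant thalamus, against 75.4%. Of the 12 largest rises, 7 were called in heterozygous and 8 in homozygous mutant thalamus, and of the 12 largest falls, 9 and 10. In the myelin list 14 of 25 fell in heterozygous thalamus, and 17 fell and 1 rose in homozygous mutant thalamus. Leaving out samples 11 and 93 of the heterozygous 4-week group, whose columns hold few whole-number values, lowered that genotype's count to 901. The ages were collected apart in all 3 genotypes, so these comparisons share the same confounding of age with collection.

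The age change in WT thalamus was then tested against the mean age change of 4 other WT regions: striatum, hippocampus and the prefrontal and somatosensory cortices. Of 17322 genes tested, 872 differed (5.03%), 300 with a more positive change in thalamus (1.73%) and 572 with a more negative one (3.3%). Many of these calls were lost when libraries were left out. Without WT 913 the test called 514 genes. Without WT 913 and WT 914 it called 424, among them 137 of the 300 (45.7%) and 133 of the 572 (23.3%). The part of genes of neighbouring structures in these losses was not tested. Among genes above an average log2 CPM of 1, the 3 largest negative differences were Prg4 (-8.74), Lct (-7.72) and Spink8 (-6.91), and none was called without both libraries (adjusted p = 0.277, 1 and 0.599). Lct and Spink8 are markers of the hippocampal list, whose score was 4.42 in WT 913 and 1.06 to 1.82 in the other 4-week libraries. In 4-week thalamus they were 0 to 49 and 0 to 5.57 CPM. Without WT 913 alone their differences were -2.78 and -1.07 (edgeR adjusted p = 0.119 and 0.696). Leaving out sample 2 of 12 weeks lowered the count of 872 genes to 473, and leaving out sample 3 of 12 weeks lowered it to 584.

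Oligodendrocyte and sterol genes fell in these regions as well. In the order prefrontal, somatosensory, hippocampal and striatal tissue, 9, 12, 14 and 17 of the 25 myelin genes and 9, 8, 18 and 19 of the 22 sterol genes were lower, while 2 and 4 myelin genes were higher in the cortical regions. Of all genes tested there, 7.79%, 12.2%, 7.1% and 7.38% were lower, and 6.01% and 10.6% were higher in the cortical regions. No myelin gene of 25 passed the edgeR test of the difference between thalamus and these regions, had an unadjusted p under 0.05 or passed with DESeq2. Cldn11 fell by 0.97, 0.97, 1.48 and 1.53 in these regions, and the difference from thalamus was -0.27 ± 0.22 (SE, edgeR adjusted p = 0.532). Hmgcs1 had log2 changes of -0.24 (adjusted p = 0.231, not called), -0.34, -0.68 and -1.08, and the difference was -0.08 ± 0.13 (adjusted p = 0.795). Gpr17 and Dnmt3a fell in all 5 regions and fell further in thalamus. The difference was -0.44 ± 0.12 for Gpr17 (adjusted p = 0.0251) and -0.32 ± 0.07 for Dnmt3a (adjusted p = 0.00812), and both were called without WT 913 and WT 914 (-0.44 and -0.38). In thalamus Bmp4 fell by 1.51, and its difference of -1.08 ± 0.22 (adjusted p = 0.00227) stood against log2 changes of 0.14 and 0.11 in the cortical regions, -0.85 in hippocampus and -1.09 in striatum.

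Differences were also called in genes of other kinds. The rise of Maob exceeded that of the other regions by 1.56 ± 0.14 (SE, edgeR adjusted p = 1.67e-10), with log2 changes of 0.84, 0.32, 0.52 and 0.57 there. Col12a1 and Neb, the gene of the filament protein nebulin, rose in thalamus by 1.84 and 2.3 and differed by 2.35 ± 0.31 and 2.62 ± 0.32 (adjusted p = 5.97e-06 and 1.46e-06). Neither rose in any of the other 4 regions. Rxfp1 and Cbln2 differed by 2.8 ± 0.6 and 2.36 ± 0.5 (adjusted p = 0.00331 and 0.00317). In prefrontal, somatosensory, hippocampal and striatal tissue, Rxfp1 had log2 changes of -0.04, 0.46, 0.06 and -2.93. Those of Cbln2 were -0.24, -0.04, -1.16 and -1.85. Both varied in striatum at 4 weeks, Rxfp1 from 0.433 to 8.32 CPM and Cbln2 from 1.39 to 12.2 CPM. Man1a fell by 2.01 in thalamus and had log2 changes of 0.04, -0.36, 0.02 and -0.15 elsewhere (difference -1.89 ± 0.22, adjusted p = 4.33e-07). Rab7b had a difference of -1.89 ± 0.3 (adjusted p = 0.000118) and also fell in somatosensory cortex (by 0.84), hippocampus (by 2.08) and striatum (by 1.84). Gsg1l fell by 0.74 in thalamus and did not pass the test in any of the other 4 regions (difference -0.9 ± 0.15, adjusted p = 0.000148). All of these were also called without WT 913 and WT 914.

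Astrocyte markers and mitochondrially encoded genes were also among the called differences, many of which were lost without WT 913 and WT 914. Of 16 astrocyte markers 7 had a more positive age change in thalamus and 1 a more negative one (1.73% and 3.3% of all genes tested). The list's median log2 change was 0.15 in thalamus and 0.04, -0.2, -0.21 and -0.35 in the other regions. Sparc rose by 0.41 in thalamus and fell by 0.81 in somatosensory cortex and 0.82 in striatum, a difference of 1.12 ± 0.2 (edgeR adjusted p = 0.000649) that was 1.18 without WT 913 and WT 914. Acsbg1 (0.6 ± 0.16, adjusted p = 0.0145) and Kcnj10, the potassium channel of astrocytes (0.71 ± 0.18, adjusted p = 0.0128), were 0.57 and 0.57 without both libraries and lost their calls (adjusted p = 0.0537 and 0.092). Of the 7 more positive markers 3 were still called there, and Gfap, the more negative one, was not (-1, adjusted p = 0.24). Of 13 mitochondrially encoded genes 8 had a more positive change (61.5%, against 1.73% of all genes tested), among them mt-Co1 (0.94 ± 0.23, adjusted p = 0.00968). Of these 8, 3 were still called without WT 913 and 2 without WT 913 and WT 914, mt-Co1 (0.88, adjusted p = 0.0499) and mt-Nd5 (0.87, adjusted p = 0.0282). No ribosomal protein gene differed by edgeR or DESeq2 (9 had an unadjusted p under 0.05).

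**Figure D5:**
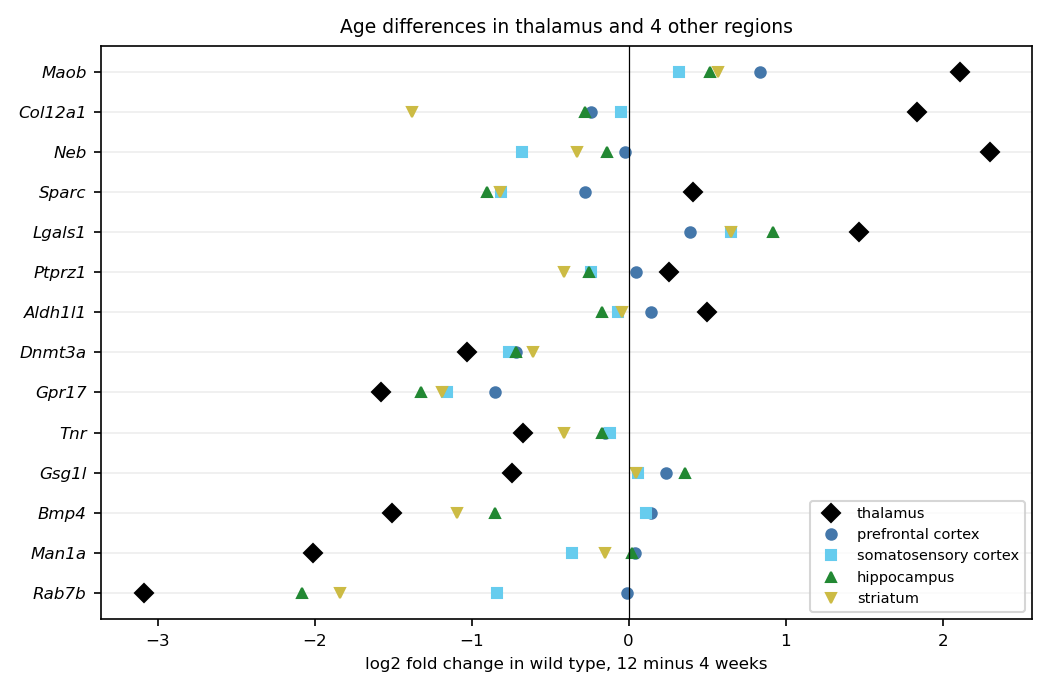
Log2 change from 4 to 12 weeks in WT mice (horizontal axis) of 14 genes in thalamus (black diamonds) and in the 4 other regions (coloured symbols). Thalamus lies at the outer end in each gene shown, from Neb (2.3) and Maob (2.11) to Rab7b (-3.09). All 14 were picked among genes called as differing from these regions (5.03% of all genes tested), which largely set this position.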

How the data were processed

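The series' authors deposited a table of expected counts (estimated counts that need not be whole) for 28338 gene symbols in 186 libraries, made with Salmon on mm10 per the submitters' processing notes; no source used here gives the Salmon version, the annotation or the strand setting. Per the labels' protocols, libraries came from 200 ng of RNA with a stranded mRNA kit. For each group, estimated counts were rounded and genes with low counts were removed with edgeR's filterByExpr; 6642 genes were at 0 in all 11 WT thalamic libraries. Libraries were scaled by TMM, and 12 was tested against 4 weeks with edgeR 4.0.16 (quasi-likelihood test, R 4.3.3), adjusting p-values by Benjamini-Hochberg over all genes tested and calling genes at an adjusted p under 0.05. Every adjusted p in the text is from this test unless DESeq2 is named. The comparison with other regions used 1 fit of WT libraries of 5 regions. Substantia nigra was left out of it, since earlier results of these data showed little of its marker genes in several of its 4-week libraries.

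The members and the gene lists were chosen with earlier results of these data known, and no list was tested as a set: lists are described by counts and medians beside those of all genes. The naming rule took the 12 largest rises and falls, up to 3 called members of each list by p, all NMDA and GABA-A genes and the 4 largest regional differences in each direction. A few genes chosen in this way are not reported here. Other list members that the text names were chosen after their values were seen. Marker scores are means of log2(CPM + 1). No replicate pair looked like 1 library deposited more than once (65 pairs, lowest chi-square per degree of freedom 10.6). Coordinates are from GENCODE M21 (mm10), to which 15059 of 15545 genes tested matched by symbol. The analysis was tested on simulated data. Alternatives were RLE scaling, no filter on low counts, DESeq2 1.42.0, all 31 thalamic libraries in 1 fit, 1 library left out at a time, WT 913 with others left out, marker scores as covariates and 1 surrogate variable (sva 3.50.0). Those leaving out WT 913 with WT 914, leaving out heterozygous samples 11 and 93, and using the reticular nucleus score as covariate were chosen after seeing the data.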

Additional observations from a re-analysis of the deposited data

Results flagged for a closer look

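In 124 groups of values (marker and list scores, and the 24 genes with the largest rises and falls, at each age), 13 had a library far from all others of its age; chance alone gives about 1 in 20. WT 913 at 4 weeks stood apart by a choroid plexus score of 1.29 (the others 0.38 to 0.69), an ependymal score of 1.43 (0.79 to 1), a hippocampal score of 4.42 (1.06 to 1.82), a hypothalamic score of 4.81 (0.54 to 0.87) and a low score of oligodendrocyte precursors and premyelinating cells, 5.15 (5.43 to 5.57). In the same library Dsp was 41.8 CPM (0.608 to 1.62 in the others), Matn2 25.7 CPM (4.16 to 7.68) and Gm42418 2310 CPM (618 to 1220). WT 142 at 4 weeks had a reticular nucleus score of 1.94 (5.02 to 6.23), and WT 42 had 5.88 CPM of Rxfp1 (0.663 to 1.94). At 12 weeks, sample 5 had a hippocampal score of 1.44 (1.07 to 1.13) and 3.87 CPM of Col6a2 (1.11 to 1.31), and sample 4 had a chromatin and DNA methylation score of 3.49 (3.57 to 3.59).

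Set against the mean age change of striatum, hippocampus and both cortices, the thalamic change differed by 2.8 for Rxfp1, 2.62 for Neb, 2.36 for Cbln2 and 2.35 for Col12a1, the largest called positive differences among genes above an average log2 CPM of 1, and by -8.74 for Prg4, -7.72 for Lct and -6.91 for Spink8, the largest negative ones (log2, edgeR). Without WT 913 and WT 914 the first 4 genes were still called (2.42, 2.57, 2.53 and 2.24) and the last 3 were not (-5.2, -0.01 and -1.43). Lct and Spink8 are members of the hippocampal marker list.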

How the results depend on the processing

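No paired analysis was possible because the WT thalamic samples of 4 and 12 weeks share no numbers. In the comparison with other regions the fit with the sample number as a replicate block called 896 genes, against 872 without it. With the block Lct had a difference of -6.06 (edgeR adjusted p = 0.0501). Thalamic samples correlated better with their own number in the other regions than with every other number in 6 of 11 cases. The labels do not say whether equal numbers name the same animal, and these correlations do not settle it. The WT count of 2227 was 3642 with all 31 thalamic libraries in 1 fit and 280 with a log2 change above 1 in size, and it ranged from 1361 (without sample 2 of 12 weeks) to 2655 (without WT 913) when 1 library was left out. RLE scaling gave 2241, of which 1119 were higher and 1122 lower. The heterozygous count of 1637 was 2500 in the fit of all 31 libraries, 981 to 1558 with 1 library left out and 901 without samples 11 and 93. The homozygous mutant count of 4494 was 3454 to 4750 with 1 library left out. The regional count of 872 was 473 (without sample 2 of 12 weeks) to 1076 (without WT 142), 514 without WT 913 and 424 without WT 913 and WT 914. Other alternatives moved these counts by less than 1.5 times.

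Over 106 named genes and 2092 pairs of gene and alternative, 1909 kept their direction and side of the threshold, 147 lost the call, 14 gained it and 22 changed sign. None of the 24 genes with the largest changes reversed (446 of 480 pairs kept their call). Their choice required a call with and without WT 913 and no overlap between ages, so it left little room for a reversal. The reversals were in genes that had not passed the test. With 1 library left out, Grin2d ranged from -0.17 to 0.08, Gabra5 from -1.95 to 0.44, Gabrb2 from -0.05 to 0.08 and Gabrd from -0.21 to 0.03. Without WT 913 and WT 914, and also without WT 23, the log2 changes were 0.18 and 0.02 for Gabra2, -0.13 and -0.14 for Gabra4, 1.00 and 0.71 for Gabra5, and -0.13 and -0.15 for Gabrb2. With the cortical score as covariate they were 0.14, -0.05, 1.08 and -0.08 in the same order. With 1 surrogate variable Gabra2 was 0.05, Gabra5 0.76 and Gabrb2 -0.05. Where no value is given beside a change, the cause was not tested. The alternative without libraries of few whole-number values was not run for WT, which has none. Among genes at low levels, Npsr1 and Nmbr lost their calls in 7 and 5 of the 11 fits that left out 1 library. Mki67 and Top2a, also low, kept theirs in all 11, and the part of depth was not tested.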

Other observations

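Genes outside the naming rule, chosen after their values were seen, nearly disappeared or appeared between the ages in WT thalamus. Casr, the calcium-sensing receptor gene, was 1.49 to 3.07 CPM at 4 weeks and 0.0188 to 0.218 CPM at 12 weeks, a fall by 4.39 on the log2 scale (SE 0.48, edgeR adjusted p = 0.000472), and it fell by 3.53 in heterozygous and 5.16 in homozygous mutant thalamus. Aplnr, the receptor of the peptide apelin, was 0.767 to 2.69 CPM and 0.0861 to 0.318 CPM (-3.12 in WT, -3.5 and -2.31 in the other genotypes). Fmo2, a flavin monooxygenase gene, was 0.0816 to 0.408 CPM and 1.67 to 7.6 CPM (3.83, 3.55 and 2.71). Plin4, which encodes a lipid droplet protein, was 0.233 to 2.38 CPM and 2.37 to 15.5 CPM (2.99, 3.48 and 2.72), and its ages overlapped. Cd247, the zeta chain of the T cell receptor complex, was 0.0428 to 0.764 CPM and 1.08 to 2.97 CPM (2.7, 2.05 and 1.78). The changes of these 5 genes were called in each genotype. Calca, the gene of calcitonin and its related peptide, was 0.0906 to 1.03 CPM and 0.672 to 5.01 CPM (2.85, adjusted p = 0.0113), and it was not called in heterozygous (1.74, adjusted p = 0.101) or homozygous mutant thalamus (0.67, adjusted p = 0.3).

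In the WT thalamic libraries 7 gene models were listed at 0 in all 6 libraries of 4 weeks and above 0 in all 5 of 12 weeks (Gm10482, Gm10717, Gm10718, Gm10719, Gm10800, Gm10801 and Gm26870), and 3 genes were listed the other way round (Gm11273, Slc4a1 and Tbx10). In all 31 thalamic libraries Gm10800, at 28.6 to 78.2 counts at 12 weeks, and Gm10801 kept this pattern. Age and collection cannot be told apart here.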
